A study of Mus musculus with 43 samples.

Results

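The NRF2 antioxidant genes described here are 10 genes that the transcription factor NRF2 is known to switch on, namely Srxn1, Prdx1, Txnrd1, Gclc, Gclm, Gsr, Nqo1, Hmox1, G6pdx and Osgin1. They were chosen by symbol, and all 10 were found among the 52636 genes of the organoid and fibroblast tables of mouse colon cultures. Colonoids (Apc wild-type, lines M41, M40 and M1) and tumoroids (Apc deleted, lines F11, M3 and M14) are epithelial organoids, 1 adult mouse per line. Both genotypes carried Vil-cre/ERT2, an inducible Cre driven by the villin promoter and so limited to epithelium, and both were grown from mice that had received tamoxifen. All 6 lines received 0.5% DMSO (vehicle, Ve), the multi-kinase inhibitor regorafenib at 4 µM (R4) or at 8 µM (R8), and the antimetabolite 5-FU at 1 µM (FU), each over 6 days, which gives 3 libraries in each of 8 groups. Fibroblasts from the colon of wild-type C57BL/6 mice (lines M3, M3(2), M1(2) and M11) received vehicle, regorafenib at 4 µM, the autophagy inhibitor autogramin-2 at 1 µM (A1) or both drugs (R4A1) over 7 days, with 4 libraries each. Fibroblasts with 10 µM regorafenib (R10) gave 3 libraries, none from line M11. The organoid medium contained the antioxidant N-acetyl cysteine, in vehicle and treated cultures alike.

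NRF2, encoded by Nfe2l2, is held at low levels by KEAP1, which presents it to a CUL3 ubiquitin ligase for degradation. Oxidants and electrophiles modify KEAP1, and NRF2 then accumulates, pairs with a small MAF protein and binds antioxidant response elements in its target genes, where BACH1 competes as a repressor. The targets rebuild reduced thioredoxin and glutathione, supply NADPH, break down haem and reduce quinones, and in the colon they form part of the defence against luminal oxidants and drugs.

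The antioxidant response element was looked for as the letters TGACNNNGC or TGAGNNNGC on both strands of the 250 bases before each start site in the RefSeq table (GRCm38.p6). Of the 10 genes, 7 had an entry there, and 6 of their 9 promoters, 1 in each of 6 genes, held a match, beside 23% of 32851 promoters of all genes. The start sites used for Osgin1, Txnrd1, G6pdx, Prdx1 and Srxn1 lie inside the gene as GENCODE draws it, downstream of its first start. For Osgin1, Txnrd1 and G6pdx the match itself lies inside the gene too. The promoters of Srxn1, Prdx1 and Osgin1 are shown because each holds a match whose first 7 letters also read TGANTCA, the palindrome bound by AP-1 factors, so the same bases fit both kinds of site. Capitals mark the matches, which are read on the opposite strand in Prdx1, in Osgin1 and at the first of the pair in Srxn1.

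Srxn1, chr2:152105341-152105512, + strand:
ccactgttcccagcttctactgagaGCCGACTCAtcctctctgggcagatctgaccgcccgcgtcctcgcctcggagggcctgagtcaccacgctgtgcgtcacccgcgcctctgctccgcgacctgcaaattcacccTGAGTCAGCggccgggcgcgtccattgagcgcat
Prdx1, chr4:116685441-116685499, + strand:
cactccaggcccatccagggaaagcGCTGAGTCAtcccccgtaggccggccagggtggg
Osgin1, chr8:119437023-119437081, + strand:
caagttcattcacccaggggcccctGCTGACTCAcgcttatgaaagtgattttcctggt

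Gclm, Txnrd1 and G6pdx held matches that do not read TGANTCA (TGACGGTGC, TGACAAAGC and TGACTGAGC). A match is a description of the letters and does not show that a factor was bound. No entry was found for Hmox1, Gclc and Gsr.

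Values are CP20M, the reads counted on a gene scaled to 20000000 per library. The estimated depth was 7950000 to 12800000 reads in the fibroblast libraries and 4370000 to 22400000 in 23 of the organoid libraries. The R4 library of colonoid line M41 held about 512000 reads, where 1 read is 39.1 CP20M, so organoid results are also given without it. The epithelial markers summed to between 65882 and 174103 CP20M in the organoids and to at most 309 in the fibroblasts, and the fibroblast markers to between 110998 and 186156 in the fibroblasts and to at most 123 in the organoids. In bulk RNA a change in the share of a cell type and a change of expression within cells cannot be told apart.

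In the vehicle fibroblasts the 10 genes spanned more than 100-fold per kilobase of exon. Hmox1, the enzyme that opens the haem ring, led with 7915 ± 1604 CP20M per kb (SD, n = 4), followed by the peroxidase Prdx1 with 2783 ± 236. Nqo1, with 1442 ± 740, and Srxn1, with 1414 ± 113, differed by less than their spread, and Osgin1 was lowest with 62.6 ± 7.08. The colonoids had another order. Prdx1 led there with 3480 ± 383 (n = 3), then glutathione reductase Gsr with 1802 ± 247 and G6pdx with 1239 ± 236, while Hmox1 stood at 415 ± 124 and Nqo1 at 128 ± 89.3. The tumoroids kept Prdx1, Gsr and G6pdx in the first 3 places, with 2847 ± 327, 1697 ± 261 and 1547 ± 87.2. The tables were scaled separately, so these levels are set side by side without a test.

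In fibroblasts 6 of the 10 NRF2 antioxidant genes were called lower with regorafenib at 10 µM, and 1 was called lower at 4 µM. A gene was called when limma's adjusted p was under 0.05 and the change was at least 1.5-fold on the scale of CP20M + 20, over the 11032 genes tested. At 10 µM the 6 genes called lower, with none called higher, were Nqo1, Srxn1, Gclc, Prdx1, G6pdx and Gclm, where 4.09% of all genes tested were called lower and 3.25% higher. The estimates of all 10 lay below 0, with a median log2 fold change of −0.78 beside −0.04 for all genes. Osgin1 is counted among the 10 in the fibroblast results with all lines, although only autogramin-2 libraries brought it over the filter on low values. At 4 µM only Srxn1 was called, beside 0.354% of all genes called lower, and the median of the 10 was −0.47 beside −0.002. All 10 estimates lay below 0 at 4 µM too. In limma 9 of them had an unadjusted p under 0.05 and 2 an adjusted p under 0.05, beside 1502 and 190 of all 11032 genes.

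**Figure D1:**
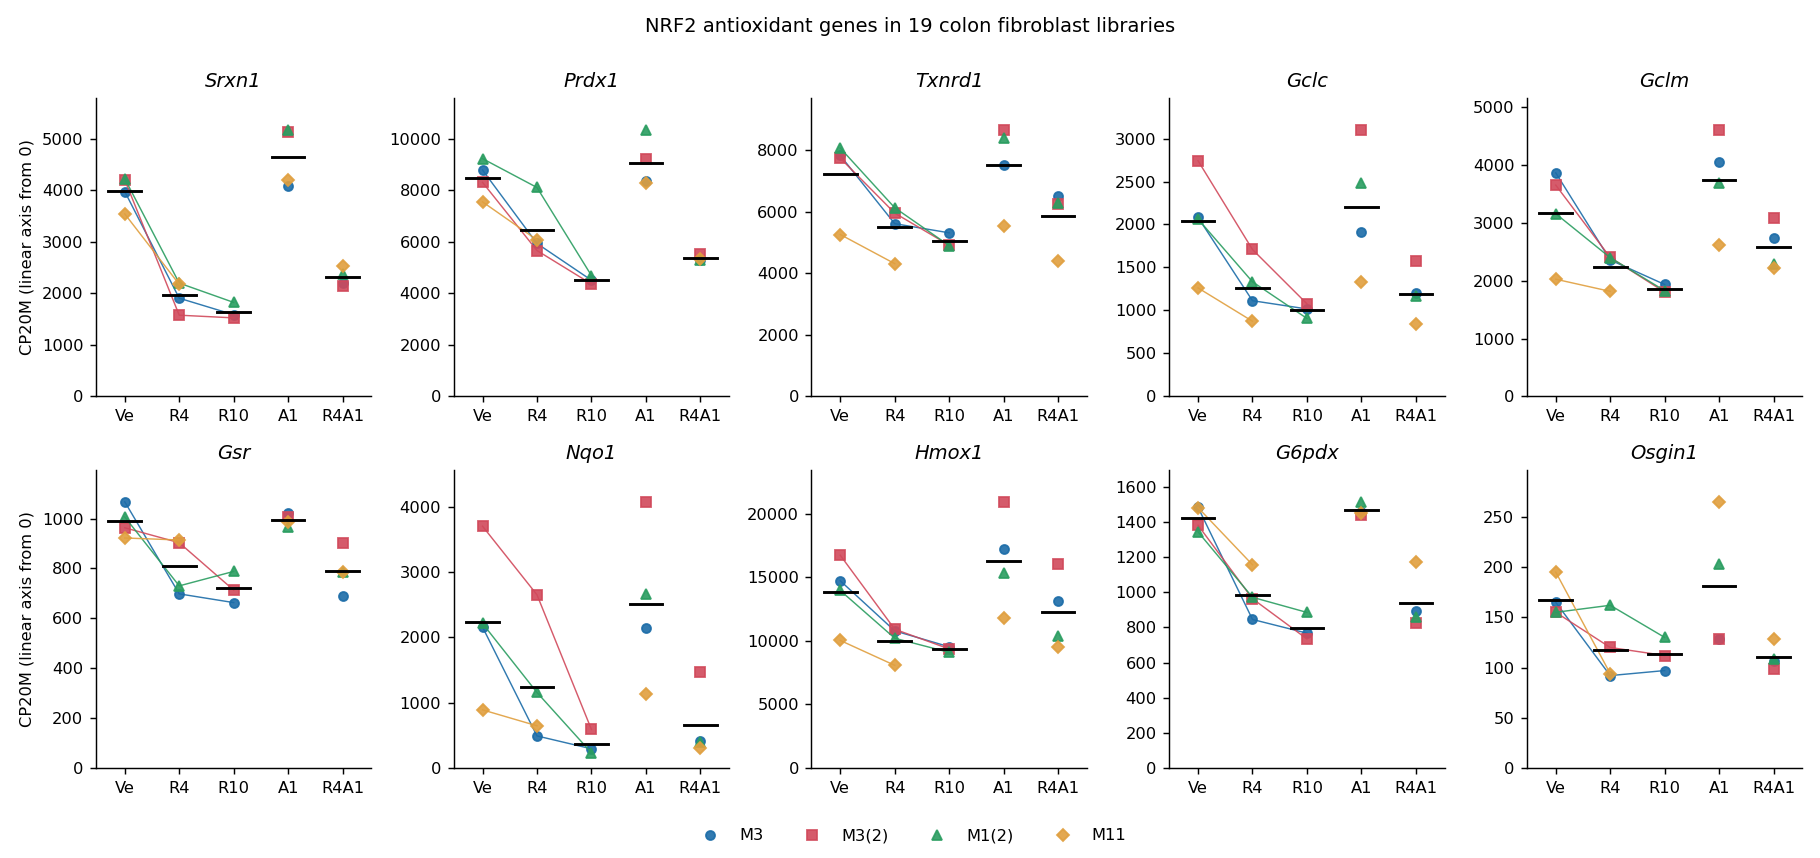
CP20M (linear axis from 0) of each of the 10 genes in the 19 fibroblast libraries, by treatment. Each symbol is 1 line, thin lines join vehicle, R4 and R10 of a line, and black bars are group means. The 3 R10 libraries lie below all vehicle libraries for Srxn1, Prdx1, Nqo1, Gclc, Gclm, G6pdx, Gsr, Hmox1 and Osgin1, while the A1 libraries overlap those with vehicle for all 10 genes.

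Srxn1, sulfiredoxin (chr2:152105516-152111376, + strand, GRCm38), repairs peroxiredoxins that have been over-oxidised. It was at 3978, 4204, 4227 and 3543 CP20M in the vehicle cultures of lines M3, M3(2), M1(2) and M11, at 1906, 1576, 2199 and 2175 with 4 µM, and at 1585, 1524 and 1824 with 10 µM in the first 3 lines. No regorafenib library reached the lowest vehicle library. The log2 fold change was −1.02 (SE 0.11, adjusted p = 0.000212) at 4 µM and −1.27 (SE 0.12, adjusted p = 6.74e-06) at 10 µM, lower in every line at both doses. Prdx1, its partner peroxidase (chr4:116685544-116700822, + strand), read 8786, 8309, 9230 and 7551 with vehicle, 5935, 5662, 8109 and 6074 with 4 µM and 4508, 4362 and 4689 with 10 µM. The 4 µM libraries overlapped the vehicle libraries through line M1(2), and the 10 µM libraries lay below them. Prdx1 fell by 0.90 on the log2 scale at 10 µM (SE 0.11, adjusted p = 7.24e-05), and its estimate at 4 µM was −0.40 (adjusted p = 0.0569). Txnrd1, thioredoxin reductase, ran from 5259 to 8068 with vehicle, from 4312 to 6129 with 4 µM and from 4899 to 5314 with 10 µM. Line M11 was its lowest vehicle library, and 2 of the 3 R10 libraries lay below it.

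Nqo1, a quinone reductase (chr8:107388225-107403206, − strand), had the widest fall. It stood at 2157, 3701, 2212 and 890 CP20M with vehicle, at 491, 2651, 1156 and 646 with 4 µM and at 294, 590 and 233 with 10 µM. Lines differed by more than 4-fold with vehicle, yet each line went down at each dose it received. The log2 fold change was −2.47 (SE 0.63, adjusted p = 0.0149) at 10 µM, and within lines it was −2.79 in M3, −2.61 in M3(2) and −3.14 in M1(2). At 4 µM it was −0.99 (SE 0.58, adjusted p = 0.497), −0.62 without line M3, and with the line as a block the adjusted p was 0.00482.

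The subunits of glutamate-cysteine ligase, which catalyses the first step of glutathione synthesis, were both called lower at 10 µM. Gclc, the catalytic subunit (chr9:77754535-77794485, + strand), was at 2083, 2742, 2063 and 1262 CP20M with vehicle, 1113, 1709, 1333 and 874 with 4 µM and 1017, 1077 and 907 with 10 µM. Gclm, the modifier subunit (chr3:122245557-122270732, + strand), was at 3866, 3654, 3159 and 2026, then 2359, 2403, 2399 and 1816, then 1935, 1804 and 1828. For both genes the 10 µM libraries lay below every vehicle library, and line M11 had the lowest vehicle value. Gclc fell by 0.96 (SE 0.29, adjusted p = 0.0377) and Gclm by 0.73 (SE 0.21, adjusted p = 0.0271) on the log2 scale at 10 µM. Gsr, which recycles oxidised glutathione (chr8:33652523-33698163, + strand), passed the adjusted p but not the fold limit at 10 µM (−0.45, SE 0.10, adjusted p = 0.00847).

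G6pdx, the first enzyme of the pentose phosphate pathway and a source of NADPH, was at 1483, 1381, 1343 and 1481 CP20M with vehicle, 845, 963, 971 and 1156 with 4 µM and 767, 734 and 885 with 10 µM. Neither regorafenib group overlapped the vehicle group. The log2 fold change was −0.83 (SE 0.11, adjusted p = 0.000204) at 10 µM and −0.53 (SE 0.10, adjusted p = 0.0141) at 4 µM, the latter under the fold limit. Exons of G6pdx (chrX:74409483-74429194, − strand, GRCm38) overlap Ikbkg on the opposite strand, and whether reads were counted by strand is not given in the sources used here. Ikbkg itself averaged 2580 CP20M with vehicle, 2618 with 4 µM and 2448 with 10 µM. In colonoids Ikbkg averaged 2062 with vehicle, 2787 with 4 µM and 2707 with 8 µM, and in tumoroids 2423, 2905 and 3090. Hmox1 read 14721, 16729, 13957 and 10029 with vehicle and 9531, 9362 and 9091 with 10 µM (−0.55, SE 0.21, adjusted p = 0.0913). Osgin1, an oxidative stress-induced growth inhibitor, stayed at 92 to 265 CP20M in all fibroblast libraries and passed the filter on low values through 2 autogramin-2 libraries alone (203 and 265).

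Because lines recur across treatments, M11 in all but R10, the fits were repeated with the line as a block. Blocked, 8 of the 10 genes were called lower at 10 µM, beside 7.71% of all genes, with Hmox1 (−0.67, adjusted p = 9.34e-06) and Txnrd1 (−0.63, adjusted p = 3.36e-07) added. At 4 µM the blocked fit called 3, with Gclc (−0.68, adjusted p = 3.05e-05) and Nqo1 added, beside 2.64% of all genes called lower. Without line M11, which has no R10 library, 8 of the 9 genes still tested were called lower at 10 µM, beside 6.02% of all genes, and 3 at 4 µM, beside 1.62%. At 10 µM, 3 genes stayed called without line M3 and 3 without M1(2) (Srxn1, Prdx1 and G6pdx), and 4 without M3(2). The macrophage markers, 9 genes of which 2 were tested, summed to 1080 to 5901 CP20M with vehicle, 644 to 2008 with 4 µM and 585 to 630 with 10 µM, where Lyz2 was called lower. Lyz2 alone reached 4214, while the leukocyte marker Ptprc stayed at 0 to 133. The smooth muscle markers, 4 genes, summed to 7570 to 23293 with vehicle, 18007 to 43507 with 4 µM and 30434 to 38725 with 10 µM, and Myh11 was called higher at both doses. Of 8 fibroblast markers Pdgfra was called lower with 4 µM, with 10 µM and with both drugs, and Col3a1 with 10 µM. Endothelial markers, 5 genes, summed to 1136 to 9596 with vehicle, 1838 to 25819 with 4 µM and 1531 to 6325 with 10 µM, and enteric glial markers, 3 genes, to 581 to 11069, 810 to 11369 and 850 to 4328, with none called. With the macrophage sum as a covariate 8 genes were called lower at 10 µM, beside 10.2% of all genes, and 6 at 4 µM, beside 3.5%, and Nqo1 then stood at −4.28 at 10 µM. The macrophage sums with 10 µM all lay below those with vehicle, so this fit cannot tell the markers and the drug apart there. The part of any cell type was not tested. Gclc and Gclm lost their calls at 10 µM with no filter on low values (adjusted p = 0.0729 and 0.054), and Gclm in the compared groups alone (adjusted p = 0.0652).

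**Figure D2:**
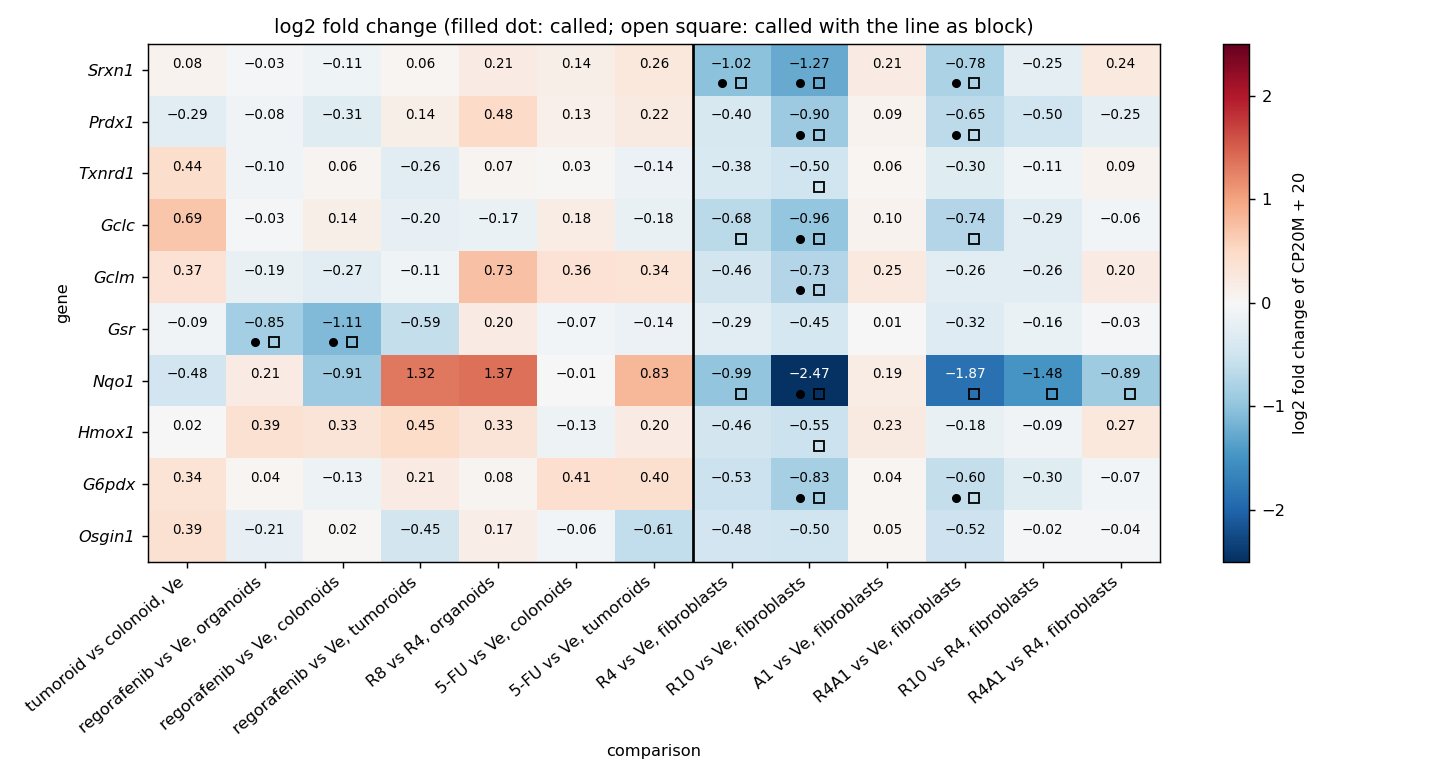
Log2 fold change of CP20M + 20 for each of the 10 genes (rows) in 13 comparisons (columns), organoids left and fibroblasts right of the black line. Filled dots mark genes called and open squares genes called with the line as a block. The dots gather in the R10, R4A1 and R4 columns of the fibroblasts, and Gsr alone carries dots in the organoid columns.

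The higher and the lower dose were also compared directly. None of the 10 genes was called by limma between 10 and 4 µM, where 0.145% of all genes were called, and 3 of the 10 had an unadjusted p under 0.05. The lowest estimate was that of Nqo1, −1.48 (95% interval −2.81 to −0.15, adjusted p = 0.353), and the highest of the 10 was −0.02. With the line as a block Nqo1 was called lower (−1.77, adjusted p = 0.000446), beside 5.02% of all genes.

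Autogramin-2 alone called none of the 10 genes in limma, with or without the block, and none of all genes (0%). None of the 10 had an unadjusted p under 0.05, and 120 of all genes did. The 10 estimates ran from 0.01 to 0.25, and each 95% interval held 0. Osgin1 is among the 10, and it passed the filter on low values through libraries of this group alone. Srxn1 was at 4093, 5128, 5170 and 4194 CP20M, Hmox1 at 17193, 20930, 15338 and 11764 and Nqo1 at 2150, 4074, 2665 and 1133, all overlapping the vehicle libraries.

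With 4 µM regorafenib and autogramin-2 together, 3 of the 10 genes were called lower than vehicle, beside 0.925% of all genes called lower. These were Srxn1 (−0.78, SE 0.11, adjusted p = 0.00138), Prdx1 (−0.65, SE 0.10, adjusted p = 0.00295) and G6pdx (−0.60, SE 0.10, adjusted p = 0.00494). Prdx1 read 5305, 5533, 5307 and 5338 CP20M, below the vehicle libraries, and Srxn1 read 2206, 2137, 2372 and 2524. The blocked fit called 5, beside 4.33% of all genes, with Nqo1 (−1.87, adjusted p = 1.90e-05) and Gclc (−0.74, adjusted p = 1.22e-05) added. G6pdx was not called with the compared groups alone (adjusted p = 0.0597) or with the macrophage covariate (−0.46). Without line M3 none was called, while all 3 estimates stayed below 0, at −0.76, −0.63 and −0.56. The macrophage markers summed to 455 to 722 CP20M here, all below the sums with vehicle. The covariate fit therefore cannot tell the markers and the drugs apart here either.

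The combination was set against 4 µM regorafenib alone. None of the 10 genes was called, beside 0.00906% of all genes, and 2 had an unadjusted p under 0.05. These were Srxn1, with a log2 fold change of 0.24 (95% interval 0.004 to 0.48, adjusted p = 0.87) and higher values in 4 of 4 lines, and Prdx1 with −0.25 (95% interval −0.46 to −0.03, adjusted p = 0.87) and lower values in 4 of 4 lines. Nqo1 was at 418, 1470, 404 and 311 CP20M with both drugs and went down from R4 in each line. Its estimate was −0.89 (adjusted p = 0.919), and it was called with the line as a block (adjusted p = 0.0416), beside 1.41% of all genes called lower, but not with the block and without line M11.

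In organoids 1 of the 10 genes was called with regorafenib, which is near the share of all genes called lower. Over both genotypes and both doses only Gsr was called, lower, beside 8.63% of all 11320 genes tested called lower and 7.58% called higher, and the median of the 10 was −0.06 beside −0.10 for all genes. Gsr was at 4540, 5747 and 4605 CP20M in the vehicle colonoids of M41, M40 and M1, at 1054, 3687 and 2294 with 4 µM and at 2231, 2410 and 2910 with 8 µM. In tumoroids F11, M3 and M14 it was at 5336, 4775 and 3908, then 4047, 2886 and 2153, then 4106, 3508 and 2274. The treated colonoids lay below every vehicle colonoid, and each of the 6 lines was lower with the drug than without it, while the tumoroid groups overlapped. The log2 fold change was −0.85 (SE 0.22, adjusted p = 0.00948) over both genotypes and −0.73 (adjusted p = 0.00224) without the shallow M41 library. Of the marker genes, the epithelial Cdx2 was called lower over both genotypes and within each, and the macrophage marker Cd68 was called higher over both; their part was not tested.

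Within colonoids Gsr was also the only one of the 10 called, at −1.11 (SE 0.31, adjusted p = 0.0247), beside 7.84% of all genes called lower. The call was lost without any 1 of the 3 colonoid lines, with estimates of −0.89 without M41, −1.19 without M40 and −1.25 without M1, and without tumoroid line M3, where the estimate stayed at −1.11 and the adjusted p was 0.0611. Without the shallow library alone the call stood (−0.87, adjusted p = 0.0123). Within tumoroids none of the 10 was called by limma, beside 6.78% of all genes, and none had an unadjusted p under 0.05. Gsr had an estimate of −0.59 there (SE 0.31, adjusted p = 0.278), and the difference between the genotypes in its response was 0.51 (SE 0.43, adjusted p = 1.00), or 0.27 without the shallow library.

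**Figure D3:**
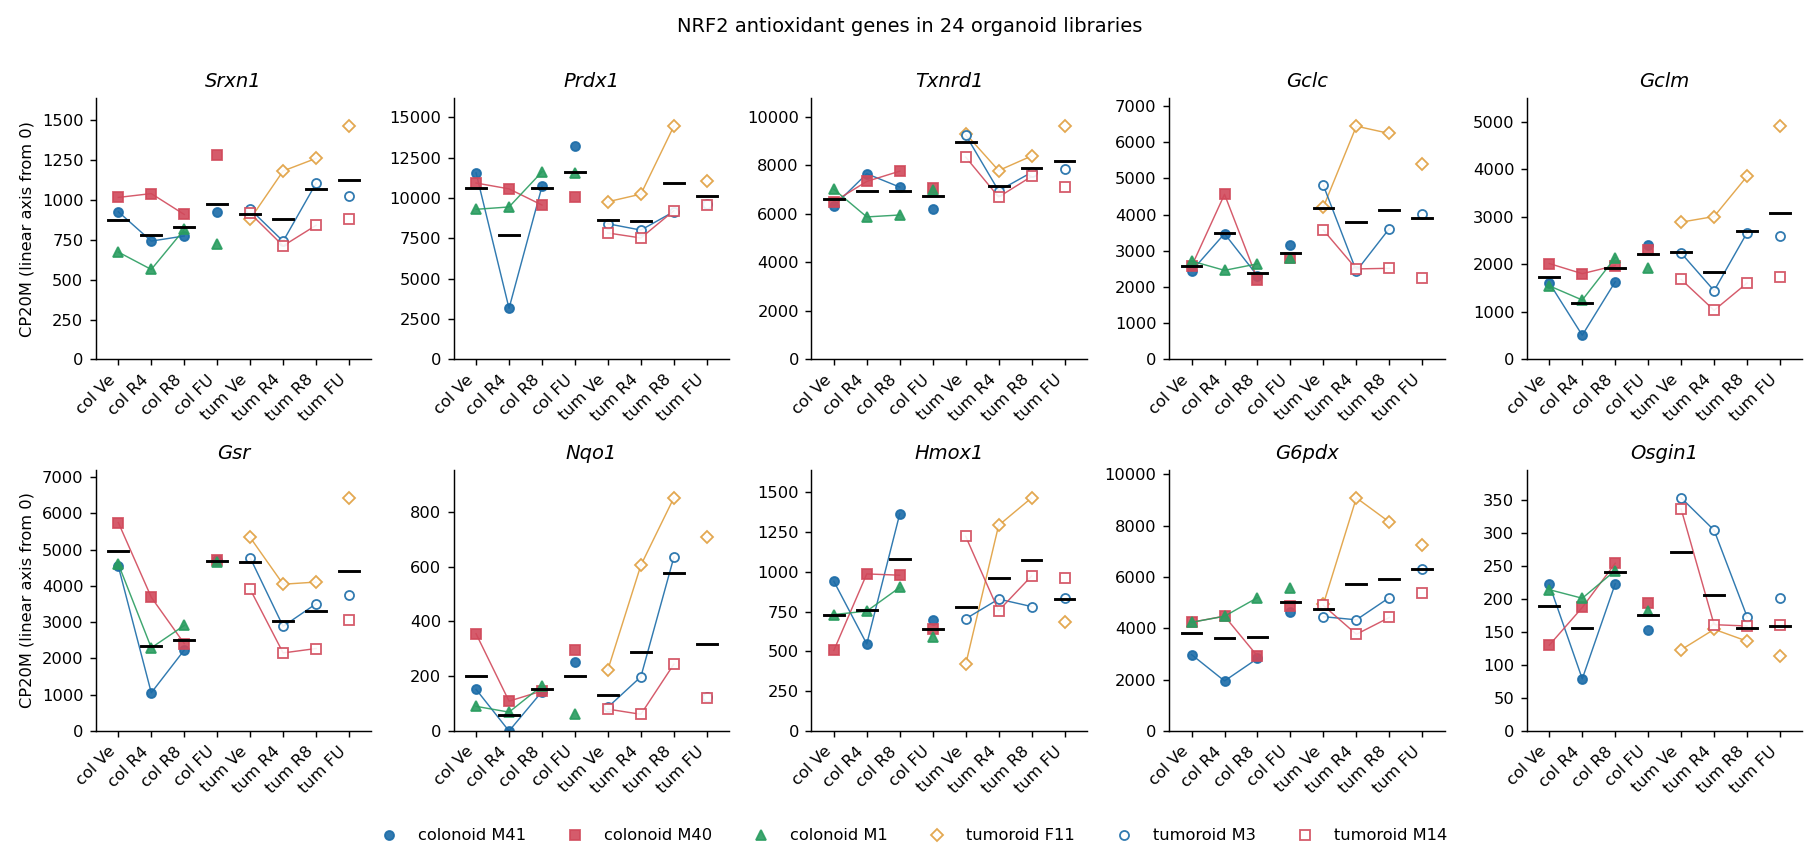
CP20M (linear axis from 0) of each of the 10 genes in the 24 organoid libraries, colonoids (col, filled symbols) left and tumoroids (tum, open symbols) right. Each symbol is 1 line, thin lines join vehicle, R4 and R8 of a line, and black bars are group means. Gsr is lower with regorafenib in each line, and the M41 R4 library is lowest of its group for Prdx1, Gclm, Gsr, Nqo1, Hmox1, G6pdx and Osgin1.

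Nqo1 was low and uneven in organoids. It was at 152, 355 and 90 CP20M in vehicle colonoids, 0, 109 and 69 with 4 µM and 144, 146 and 165 with 8 µM. The 0 is in the shallow library, where 3 reads would be 117 CP20M. In tumoroids it was at 224, 87 and 80, then 605, 198 and 61, then 851, 634 and 244, so the 8 µM libraries lay above the vehicle libraries. The log2 fold change was −0.91 (SE 0.66, adjusted p = 0.376) in colonoids and 1.32 (SE 0.66, adjusted p = 0.259) in tumoroids, and the difference between them was 2.23 (95% interval 0.24 to 4.22, adjusted p = 1.00). None of these was called, nor was the difference between genotypes for any of the 10 genes, beside 0.00883% of all genes. Without the shallow library the colonoid estimate was −0.50, and without line M1 it was −1.47. With the line as a block and without the shallow library, Nqo1 was called higher in tumoroids (adjusted p = 0.0125) and Gsr lower (adjusted p = 0.00908), beside 8.68% of all genes called higher and 7.1% called lower, and the difference between genotypes in Nqo1 was then 1.85 (adjusted p = 0.265).

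The other 8 genes showed no called change with regorafenib in organoids. Their estimates over both genotypes ran from −0.21 to 0.39. Srxn1, called lower at both doses in fibroblasts, was at 673 to 1016 CP20M in vehicle colonoids and 880 to 942 in vehicle tumoroids, and at 564 to 1261 with regorafenib, so its groups overlapped. Between 8 and 4 µM none of the 10 was called by limma, beside 0.451% of all genes. Nqo1 (1.37, adjusted p = 0.25) and Gclm (0.73, adjusted p = 0.282) had an unadjusted p under 0.05 there and were higher at 8 µM in 6 of 6 lines, while the median of all genes was 0.11. Without the shallow library the estimates were 0.97 and 0.48. In the same comparison Cd68 was the only called macrophage marker, in a list that summed to 550 to 909 CP20M at 4 µM and 596 to 3247 at 8 µM over both genotypes, with Ptprc at 0 to 7 and Lyz2 at 0 to 4.

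Apc deletion and 5-FU gave no calls among the 10 genes. Between vehicle tumoroids and colonoids 1.39% of all genes were called and 1 of the 10 had an unadjusted p under 0.05, Txnrd1 at 0.44 (SE 0.14, adjusted p = 0.147). It was at 9296, 9247 and 8335 CP20M in tumoroids and 6316, 6493 and 7008 in colonoids, without overlap. Without the shallow library its adjusted p was 0.0416, still under the fold limit. Gclc read 4213, 4806 and 3572 in the vehicle tumoroids and 2440, 2570 and 2717 in the vehicle colonoids, again without overlap, and was not called. With 5-FU none of the 10 genes was called by limma in colonoids or tumoroids, beside 0.0432% and 0.182% of all genes, and none had an unadjusted p under 0.05. The estimates ran from −0.13 to 0.41 in colonoids and from −0.61 to 0.83 in tumoroids.

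Of 10 regulators of the pathway, 2 were called lower with 10 µM regorafenib in fibroblasts, beside 4.09% of all genes. In organoids 1 of the 10 was called lower over both genotypes, near the 8.63% of all genes. Nfe2l2 itself was called lower in both cell types. In fibroblasts it was at 2367, 2480, 2610 and 2666 CP20M with vehicle, 1566, 2175, 1651 and 1872 with 4 µM and 1326, 1457 and 1569 with 10 µM, without overlap between either dose and vehicle. Its log2 fold change was −0.80 (SE 0.10, adjusted p = 8.18e-05) at 10 µM and −0.48 (adjusted p = 0.0113), under the fold limit, at 4 µM. In organoids it was −0.76 (SE 0.19, adjusted p = 0.0093), lower in 6 of 6 lines, and −0.62 (adjusted p = 0.000161) without the shallow library. That call was lost without tumoroid line M3 (−0.70) and without M14 (−0.69). Keap1 ranged from 925 to 1070 CP20M over all fibroblast libraries and Bach1 from 849 to 1478. Neither gene was called in any of the 14 comparisons. Exons of Keap1 overlap Gm16754 on the opposite strand, which reached at most 508 CP20M in any library. Sqstm1, an autophagy receptor that binds KEAP1, was called lower at 10 µM in fibroblasts (−0.69, adjusted p = 0.000926). No other regulator was called in the main fits. Within colonoids Nfe2l2 was also called lower with all libraries (−0.92), beside 7.84% of all genes called lower. That call was lost without colonoid line M1 or M40 and without tumoroid line F11, M14 or M3. It was also lost with no filter on low values and in the compared groups alone. Without the shallow library Nfe2l2 was called lower within colonoids and also within tumoroids, where 18.7% and 12.8% of all genes were called. It was then called higher in vehicle tumoroids than in vehicle colonoids (0.59, adjusted p = 0.031), beside 6.45% of all genes called. Nfe2l1 was then called as well within colonoids.

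**Figure D4:**
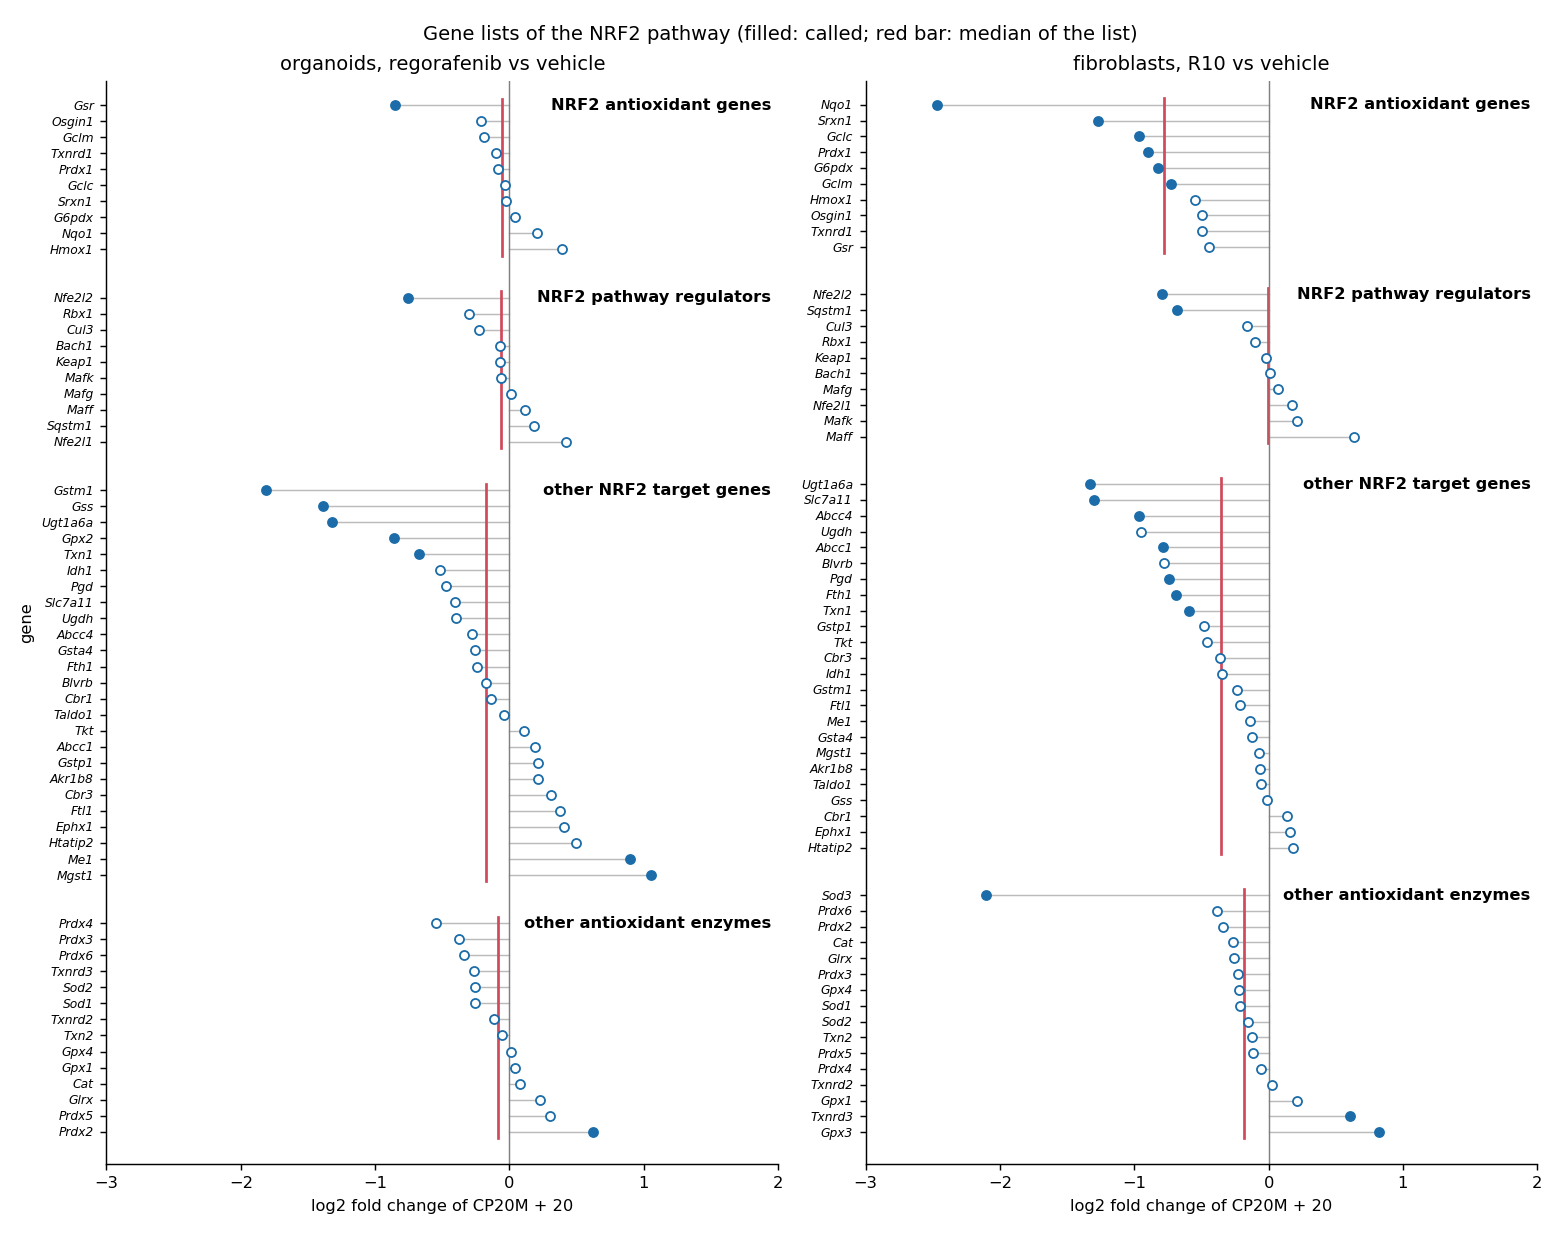
Log2 fold change of CP20M + 20 for the tested genes of 4 lists, with regorafenib in organoids (left, both doses and genotypes) and with 10 µM regorafenib in fibroblasts (right). Filled symbols are called genes and red bars the median of each list. The medians of the 10 genes are −0.06 on the left and −0.78 on the right.

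A further 28 known NRF2 targets were listed, of which 25 were tested in organoids and 24 in fibroblasts. At 10 µM in fibroblasts 7 were called lower and none higher, beside 4.09% and 3.25% of all genes, with a list median of −0.36 beside −0.04. The largest were Ugt1a6a, a glucuronosyltransferase (−1.33, adjusted p = 0.00603), Slc7a11, the cystine importer (−1.30, adjusted p = 0.00377), Abcc4 (−0.97, adjusted p = 0.0021) and Abcc1 (−0.78, adjusted p = 0.0268), both export pumps. Of the 7, 1 stayed called without line M3, 3 without M3(2) and 2 without M1(2). With the macrophage sum as a covariate Ugt1a6a was at −0.59 and was not called. Slc7a11 averaged 664 ± 210 CP20M with vehicle, 319 ± 23.7 with 4 µM, 252 ± 56.7 with 10 µM, 1001 ± 335 with autogramin-2 alone and 670 ± 164 with both drugs. With the line as a block it was called higher with both drugs than with 4 µM regorafenib (0.999, adjusted p = 0.00495), and without the block it was not (adjusted p = 0.653). At 4 µM and with both drugs Abcc4 was the only target called (−0.81 and −0.69), and these calls were lost without any 1 of the lines M3, M3(2) and M1(2).

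In organoids 5 of these targets were called lower and 2 higher with regorafenib, beside 8.63% and 7.58% of all genes, and the list median was −0.18 beside −0.10. The largest were Gstm1, a glutathione transferase (−1.81, adjusted p = 0.00464), Gss, glutathione synthetase (−1.39, adjusted p = 2.88e-05), Ugt1a6a (−1.32, adjusted p = 0.01) and Mgst1, a microsomal glutathione transferase (1.05, adjusted p = 0.0379). Of the 7, 4 to 6 stayed called when a line was left out, with 4 without colonoid line M40 or tumoroid line M3 or M14. Gss fell from 5074 ± 720 CP20M in vehicle colonoids to 1780 ± 466 with 4 µM and 1473 ± 280 with 8 µM, and from 3788 ± 618 to 1668 ± 459 and 1838 ± 497 in tumoroids. It was called within tumoroids as well (−1.13, adjusted p = 0.00804), though not without line M3 (−1.21) or M14 (−0.79). In fibroblasts Gss averaged 965 ± 143 CP20M with vehicle and 956 ± 130 with 10 µM. Gstm1 and Mgst1 belong to families with similar members, so reads could be split between copies. Txn1, thioredoxin, was the only listed target called between the genotypes, lower in tumoroids (−1.16, adjusted p = 0.0299). That call was lost without M41, M40, M3 or M14 (−1.15 to −0.91). Without the shallow library 2 listed targets were called between the genotypes, beside 6.45% of all genes.

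Of 17 other antioxidant enzymes, 14 were tested in organoids and 16 in fibroblasts. Prdx2 was the only one called with regorafenib over both organoid genotypes (0.62, adjusted p = 0.00803), higher in 6 of 6 lines. That call was lost without M1 (0.47) or M14 (0.58). Within each genotype none was called. Without the shallow library 1 was called within colonoids and 1 within tumoroids, beside 18.7% and 12.8% of all genes. At 10 µM in fibroblasts Sod3, extracellular superoxide dismutase, was called lower (−2.10, adjusted p = 0.0153), and Gpx3, a secreted glutathione peroxidase, was called higher (0.82, adjusted p = 0.0104), as was Txnrd3 (0.60, adjusted p = 0.0114), beside 4.09% of all genes called lower and 3.25% higher. Sod3 averaged 471 ± 238 CP20M with vehicle and 105 ± 91.3 with 10 µM, and Gpx3 899 ± 96.6 and 1601 ± 117. None of the 3 stayed called without line M3 or M3(2), and Sod3 did without M1(2). With the macrophage sum as a covariate none of the 3 was called, at −1.71 for Sod3, 0.45 for Gpx3 and 0.48 for Txnrd3, and with the line as a block Txnrd3 was under the fold limit (0.55).

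After each line's mean was taken out, the 10 genes rose and fell together across the fibroblast libraries more closely than across the organoid libraries. Over the 45 pairs of genes, Pearson's r had a median of 0.89 and a range of 0.56 to 0.98 over the 19 fibroblast libraries, and a median of 0.33 and a range of −0.49 to 0.86 over the 24 organoid libraries. These libraries share treatments and lines, so the values describe the tables and were not tested. In fibroblasts the pairs include Osgin1, which passed the filter on low values through autogramin-2 libraries alone. The genes outside the list that followed the mean of the 10 most closely in fibroblasts were Snx5 (r = 0.983), Gm44275 (0.981), Prl2c2 (0.981), Prl2c3 (0.981) and Gda (0.98), where Prl2c2 and Prl2c3 are near-identical copies whose reads could be split. In organoids they were Esd (0.925), Oraov1 (0.912), Ces2g (0.905), Mpp1 (0.893) and Usp46 (0.878).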

How the data were processed

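Total RNA of 43 cultures was sequenced. Samples were grouped by the condition, genotype and line in their labels. For 5-FU, 3 tumoroid libraries are titled as colonoids and were assigned from their genotype label and library name. The library name also gave the line of 1 M3 fibroblast library. The labels and the study's methods name different library kits. The authors trimmed reads with Trimmomatic 0.36, aligned them to GRCm38 with STAR 2.5.3a and counted them with HTSeq 0.9.1, per the labels. The deposited CP20M values, treated as a score, are the authors' counts scaled to 20000000 per library and rounded up. They are not divided by transcript length, although the study's legends say per kilobase. Depth was estimated from the step between values. No 2 libraries were identical.

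Log2(CP20M + 20) was fitted with limma 3.58.1 in R 4.3.3 (1 coefficient per group, eBayes with trend) for genes at 200 CP20M or more in at least 2 libraries, in 18 organoid libraries for genotype and regorafenib, all 24 for 5-FU and 19 fibroblast libraries, and p-values were adjusted by Benjamini-Hochberg over all genes tested. Libraries of a line come from 1 mouse. After group means were subtracted, same-line libraries correlated at 0.503 (organoids) and 0.719 (fibroblasts) on average and different lines at −0.249 and −0.229. Without the block, p-values cover the spread between lines and treat the libraries of a line as independent. With the block, the difference in level between lines is taken out. In simulated data for 10 µM regorafenib in fibroblasts (11032 genes), 73% of genes changed by a log2 fold of 1 were recovered. For 5-FU in tumoroids (11562 genes) 36% were recovered. The simulated libraries were drawn independently, without the correlation within lines, so recovery in the real data can differ. All 10 genes are named. From each list up to 4 called genes with the largest change are named per comparison, with Nfe2l2, Keap1 and Bach1. Slc7a11 with both drugs and Nfe2l1 were named after their values were seen. Genes and lists were chosen with earlier results of these data known. Positions come from GENCODE M21 and promoters from RefSeq (GRCm38.p6).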

Additional observations from a re-analysis of the deposited data

Results flagged for a closer look

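Among the 40 sets of 4 fibroblast libraries (10 genes in 4 groups), 6 held a library far from the other 3 by Dixon's criterion, where chance gives about 1 in 20. Line M11 was far below the others for Txnrd1 with vehicle (5259 CP20M), for Txnrd1 with regorafenib and autogramin-2 (4395) and for Gclm with 4 µM regorafenib (1816). Line M3(2) was far above for Nqo1 (1470) and, within a narrow range, for Prdx1 (5533) with both drugs, and line M1(2) for Prdx1 with 4 µM (8109).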

How the results depend on the processing

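The deposited values gave no counts, so the planned TMM scaling and the edgeR and DESeq2 tests were not run. Of the 10 genes, the number called with 4 µM regorafenib in fibroblasts was 1, and it was 3 with the line as a block, 4 with the block and without M11, 6 with the macrophage covariate, 2 with no fold limit and 1 to 3 when a line was left out. At 10 µM it was 6, and 4 with no filter on low values, 5 in the compared groups alone and 3 (without M3 or M1(2)) to 8 (without M11) when a line was left out. With regorafenib and autogramin-2 it was 3, and 5 with the block, 5 with the block and without M11, 7 with the covariate (G6pdx lost) and 0 (without M3) to 4 when a line was left out. Between 10 and 4 µM it was 0, and 1 with the block, 1 with the block and without M11 and 2 with the covariate. Between the combination and 4 µM it was 0, and 1 with the block but 0 with the block and without M11. In organoids the 1 call over both genotypes became 0 at the study's stricter threshold. The 1 call in colonoids became 0 at that threshold, with no filter on low values, in the compared groups alone and without M41, M40, M1 or tumoroid M3, for a range of 0 to 1 when a line was left out. In tumoroids the count was 0, and 2 with the block and without the shallow M41 library, beside 6.78% and 15.8% of all genes. Causes were not tested, except that the compared groups alone hold fewer libraries and the absent filter adds genes. For vehicle tumoroids against colonoids, whose lines differ, the block was a random effect.

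Median-of-ratios scaling and the block without M11 were chosen after seeing the data. That scaling moved the median of all genes in colonoids from −0.14 to −0.03, and with it 6, 1 and 2 of the 10 genes were called with 10 µM, 4 µM and both drugs in fibroblasts, where G6pdx with both drugs lost its call (−0.57). No value of the 10 genes given gene by gene changed sign in any alternative run, nor did any called value of another gene. Values of other genes that were not called in the main fit were not part of this check. Of 94 values of the 10 genes given as ranges, 43 changed sign in at least 1 of 1231 alternatives, and none was called with the other sign. Depth limits Nqo1 and Osgin1 in organoids, most of all in the shallow library.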
